A study of Mus musculus with 20 samples.

Results

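Mitochondrial ribosomal proteins were studied in articular cartilage of the mouse knee, in mice that lack Dio2 and in wild-type mice, with and without forced treadmill-running. Members were the probes of the Illumina MouseWG-6 v2 array whose gene symbol starts with Mrpl or Mrps and a number, and which were detected (p-value below 0.05 against the negative controls) on 3 or more of the 20 arrays. The symbol was found on 132 probes of 76 genes, out of 45281 probes on the array, and 109 probes of 72 genes passed detection, out of 23148 probes of 12310 genes. Each gene was summarised by its brightest probe. Of the 4 genes that failed, Mrpl19, Mrpl32 and Mrpl39 were detected on 0 arrays and Mrpl45 on 1 array. Mrps14, on 6 arrays, was the member closest to the limit, and the other 71 genes were detected on all 20 arrays.

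The groups were 6 pools of Dio2-/- Run, 3 of Dio2-/- NoRun, 8 of wild-type Run and 3 of wild-type NoRun cartilage. Dio2 encodes the deiodinase that turns the prohormone thyroxine into active thyroid hormone. All mice were male and 4 to 6 months old, and the Dio2-/- mice carried the deletion on a C57Bl/6 background in the 6th generation of backcrossing, so that genes near Dio2 may still derive from the original strain. Run mice were exercised on a treadmill tilted by 5 degrees and moving at 11 m/min, in daily sessions of 1 hour on 5 days of each of 3 weeks, and NoRun mice were not exposed. Each array held left-knee cartilage of a pair of mice of one group. Wild-type mice are described both as purchased and as littermates of the Dio2-/- mice, so that supplier and genotype cannot be told apart from the sources used here.

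The mitochondrial ribosome translates the few proteins that are encoded by mitochondrial DNA, all of them subunits of the respiratory chain and of ATP synthase. Its RNAs come from mitochondrial DNA, whereas all of its proteins are made from nuclear genes, translated in the cytosol and imported. The small subunit reads the messenger RNA and the large subunit joins amino acids. Some of the proteins have a counterpart in the bacterial ribosome and others occur in mitochondria only. Among the 72 genes, 46 encode proteins of the large subunit, including Mrps30 and Mrps18a in spite of their names, and 26 encode proteins of the small subunit. A bacterial counterpart is known for 44, and 28 are of mitochondria only.

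Promoter windows are shown for 4 of the genes that had the higher level in Run cartilage of both genotypes, described further down. RefSeq (GRCm38.p6) gave a window of 300 bases, from 250 before to 50 after the start, for 64 of the 72 genes. The windows are those of Mrpl36 (chr13:73330759-73331058, plus strand), Mrpl46 (chr7:78783040-78783339, minus strand), Mrps18a (chr17:46110754-46111053, plus strand) and Mrps27 (chr13:99344536-99344835, plus strand), each written 5′ to 3′ on the strand of its gene. Capitals mark the letters of 4 motifs searched on both strands, the YY1 core AAGATGGC, the core CCGGAAGT of ETS factors such as GABP, the NRF1 core GCGCATGC and the TATA box TATAAA.
Mrpl36: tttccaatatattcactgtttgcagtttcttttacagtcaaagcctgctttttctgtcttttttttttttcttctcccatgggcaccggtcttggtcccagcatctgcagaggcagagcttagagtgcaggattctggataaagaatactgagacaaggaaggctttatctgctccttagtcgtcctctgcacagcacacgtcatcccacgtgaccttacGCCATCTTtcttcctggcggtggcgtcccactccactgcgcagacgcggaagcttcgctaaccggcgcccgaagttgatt
Mrpl46: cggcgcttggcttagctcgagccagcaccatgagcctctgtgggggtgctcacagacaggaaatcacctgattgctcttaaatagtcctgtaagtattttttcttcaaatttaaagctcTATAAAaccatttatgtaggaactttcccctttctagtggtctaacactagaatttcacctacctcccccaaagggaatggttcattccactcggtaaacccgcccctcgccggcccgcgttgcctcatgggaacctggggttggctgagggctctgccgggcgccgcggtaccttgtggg
Mrps18a: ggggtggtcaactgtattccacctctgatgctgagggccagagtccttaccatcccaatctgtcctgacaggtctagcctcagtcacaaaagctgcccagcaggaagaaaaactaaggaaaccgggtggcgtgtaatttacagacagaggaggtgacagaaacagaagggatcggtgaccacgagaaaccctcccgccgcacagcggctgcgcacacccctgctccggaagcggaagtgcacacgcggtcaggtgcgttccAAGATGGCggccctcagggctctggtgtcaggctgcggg
Mrps27: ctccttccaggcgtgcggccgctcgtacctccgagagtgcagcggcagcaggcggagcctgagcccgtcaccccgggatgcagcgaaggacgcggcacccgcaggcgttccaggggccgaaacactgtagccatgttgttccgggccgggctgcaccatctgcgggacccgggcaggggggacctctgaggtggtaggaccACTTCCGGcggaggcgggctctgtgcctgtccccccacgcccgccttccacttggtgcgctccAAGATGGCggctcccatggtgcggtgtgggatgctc
The YY1 core stood in Mrpl36, on the opposite strand, and in Mrps18a and Mrps27. Mrps27 also held the ETS core, on the opposite strand, and Mrpl46 held only the letters of a TATA box.

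Over all members with a window, the YY1 core was found in 11 of 64 (17.2%), against 4.82% of the 9883 tested genes with a window and 3.19% of all 27025 genes with a window. A gene with several windows was counted if any of them held the motif. On the coding strand between the start and 50 bases after it, it was found in 8 of 64 (12.5%), against 2.26% of tested genes and 1.04% of all. The ETS core was found in 12 members (18.8%), against 8.02% and 4.31%, and the NRF1 core in 6 (9.38%), against 5.37% and 3.05%. The TATA letters were found in 5 members (7.81%), against 10.3% and 15.7%. YY1, GABP and NRF1 are known regulators of nuclear genes for mitochondrial proteins, but a match of letters is a description and not a binding site. A further property was the arrangement of the genes: 23 of the 64 members (35.9%) had a window that overlapped the window of a gene on the opposite strand, against 16.8% of tested genes and 11.9% of all genes. Mrpl46 and Mrps11 face each other in this way and share 141 bases, Mrps12 faces Sars2, Mrpl43 faces Twnk and Mrpl47 faces Ndufb5.

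Median intensity per array lay between 162.3 and 223 and the number of detected probes between 18469 and 21386. The 6 chips were unevenly filled. Wild-type NoRun pools were all on chip 4, with 1 Dio2-/- Run pool, and Dio2-/- NoRun pools were alone on chip 5. Run pools lay on chips 1, 2, 3, 4 and 6. A Dio2 probe was detected on 7 of 9 Dio2-/- and on 2 of 11 wild-type arrays, and a second Dio2 probe on 0 of 20. Since the position of the probes relative to the deleted part is not given, neither probe checks the genotype. Of 15 chondrocyte markers, 12 were tested and 6 were detected on all arrays, while the mean log2 level per array of the neutrophil list was 12.88 to 15.12 and that of the muscle list 13.09 to 14.68. Marker genes of other cells therefore stand beside the results, and in such bulk samples fewer cells of a type and less RNA per cell cannot be told apart.

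In Dio2-/- cartilage, most mitochondrial ribosomal protein genes had higher levels in Run than in NoRun pools, by a small amount. The log2 fold change was above 0 for 55 of 72 genes, with a median of 0.15, against a median of 0.02 over all tested genes. An unadjusted p below 0.05 was found for 16 genes (22.2%) with higher and 3 with lower level in Run, whereas over all tested genes the shares were 8.4% for higher and 8.02% for lower. None of the 72 genes passed limma's test after adjustment over all probes, in which 0.134% of all tested probes were called. No Dio2-/- Run pool shared chip 5 with the Dio2-/- NoRun pools, and no wild-type Run pool shared chip 4 with the wild-type NoRun pools, so that for every member running and chip cannot be told apart within a genotype. The differences lay between -0.79 in Mrps15 and 0.56 in Mrpl57. That of Mrpl57 was 0.14 without Dio2-/- NoRun 16. By subunit, the median was 0.17 for the large subunit (36 of 46 genes higher) and 0.14 for the small subunit (19 of 26 higher). Proteins with a bacterial counterpart had a median of 0.15 and those of mitochondria only of 0.16.

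Each array was also summarised by the median, over the 72 genes, of the deviation from the gene's mean over all arrays. This log2 value was 0.06 ± 0.07 in Dio2-/- Run (SD, n = 6) and -0.10 ± 0.03 in Dio2-/- NoRun (SD, n = 3), and it was 0.02 ± 0.09 in wild-type Run (SD, n = 8) and -0.05 ± 0.09 in wild-type NoRun (SD, n = 3). In Dio2-/- mice the ranges did not overlap, with -0.01 to 0.14 in Run and -0.12 to -0.06 in NoRun. In wild-type mice they overlapped, with -0.10 to 0.15 in Run and -0.16 to 0.004 in NoRun, and the lowest pool of NoRun, number 15, held the lowest value of 18 genes.

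**Figure D1:**
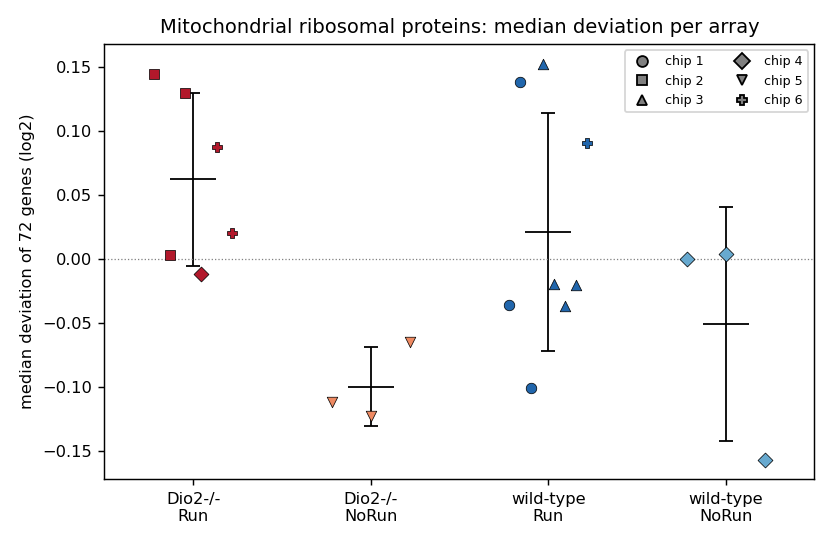
Median deviation of the 72 mitochondrial ribosomal protein genes from their mean over all arrays (log2, vertical axis) for each of the 20 arrays by group, with the mean and SD of each group as bars and the chip as marker shape. The 6 Dio2-/- Run arrays lie between -0.01 and 0.14, above the 3 Dio2-/- NoRun arrays at -0.12 to -0.06, while the wild-type groups overlap.

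Among the large-subunit proteins, Mrpl15 and Mrpl13, both of which have a bacterial counterpart, had the smallest p of all members for running in Dio2-/- mice. Mrpl15 ran from 11.88 to 12.19 in Dio2-/- Run (median 12.01), against 11.55, 11.51 and 11.54 in Dio2-/- NoRun, a log2 fold change of 0.49 (SE 0.13, unadjusted p = 0.00129, adjusted p = 0.0804 in limma). Every Run pool was above every NoRun pool. In wild-type mice Mrpl15 ran from 11.58 to 12.05 in Run (median 11.76), against 11.60, 11.77 and 11.25 in NoRun, and these groups overlapped (0.25, unadjusted p = 0.0573). Mrpl13 ran from 12.57 to 12.79 in Dio2-/- Run (median 12.74), against 12.36, 12.40 and 12.35 in Dio2-/- NoRun, without overlap (0.34, SE 0.09, adjusted p = 0.0804). Its wild-type Run pools at 12.48 to 12.64 (median 12.57) overlapped the wild-type NoRun pools at 12.43, 12.55 and 12.33 (0.12, unadjusted p = 0.17). The difference between the genotypes in the running effect of Mrpl13 was 0.21 on the log2 scale, with an unadjusted p of 0.104, and was thus not shown.

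Mrpl44, a protein of the large subunit with an RNase III fold, was at 10.17 to 10.68 in Dio2-/- Run (median 10.57), against 9.62, 10.21 and 10.25 in Dio2-/- NoRun. The groups overlapped through the lowest Run pool, and the log2 fold change was 0.48 (SE 0.15, adjusted p = 0.118), or 0.28 without Dio2-/- NoRun 16. Mrps22, a protein of the small subunit found in mitochondria only, was at 10.72 to 11.30 in Dio2-/- Run (median 11.22) and at 10.64 to 10.82 in Dio2-/- NoRun (0.39, adjusted p = 0.134). Opposite in sign was Mrps6, a small-subunit protein with a bacterial counterpart. It was at 9.03 to 9.97 in Dio2-/- Run (median 9.40), against 9.92, 9.72 and 9.93 in Dio2-/- NoRun (-0.43, adjusted p = 0.196), and the groups overlapped. The promoter window of Mrps6 shares 286 bases with that of Slc5a3 on the same strand.

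In wild-type cartilage, the members' running effect had a median of 0.09, against 0.009 over all tested genes, with 49 of 72 genes higher in Run. An unadjusted p below 0.05 was found for 10 genes (13.9%) with higher and for 0 with lower level in Run, while over all tested genes 6.52% were higher and 6.47% lower. None passed after adjustment, where 0.194% of all probes were called. The median was 0.11 for the large subunit (34 of 46 higher) and 0.03 for the small subunit (15 of 26 higher). This count rests on 1 pool: without wild-type NoRun 15 only 1 member had a higher level at an unadjusted p below 0.05, against 5.01% of all genes, and the members' median was 0.03. In Dio2-/- mice the count was 7 without Dio2-/- NoRun 16, against 4.26% of all genes.

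The running comparisons of the genotypes share no array, but all arrays were normalised together, share limma's estimate of the spread and partly lie on the same chips. Higher in Run in both were 42 of 72 members (58.3%), against 36.2% of all tested genes, and 7 members (9.72%) had an unadjusted p below 0.05 for a higher level in both, against 2.01% of all tested genes. The 7 were Mrpl36, Mrpl46, Mrpl53, Mrpl58, Mrps18a, Mrps27 and Mrps9. The wild-type side of this overlap rests on 1 pool. Without wild-type NoRun 15, 1 member was higher in wild-type Run at that p, against 5.01% of all genes. Groups that did not overlap, with Run higher, were found for 8 members in Dio2-/- mice (Mrpl13, Mrpl15, Mrpl18, Mrpl36, Mrpl46, Mrpl58, Mrps17 and Mrps18a) and for 6 in wild-type mice (Mrpl36, Mrpl46, Mrps18a, Mrps26, Mrps27 and Mrps9). Over all tested genes this was so for 2.1% in Dio2-/- and 4.56% in wild-type mice. With Run lower, it was so for 1 member in Dio2-/- mice, Mrpl52, against 1.88% of all genes, and for 0 members in wild-type mice, against 3.89%.

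**Figure D2:**
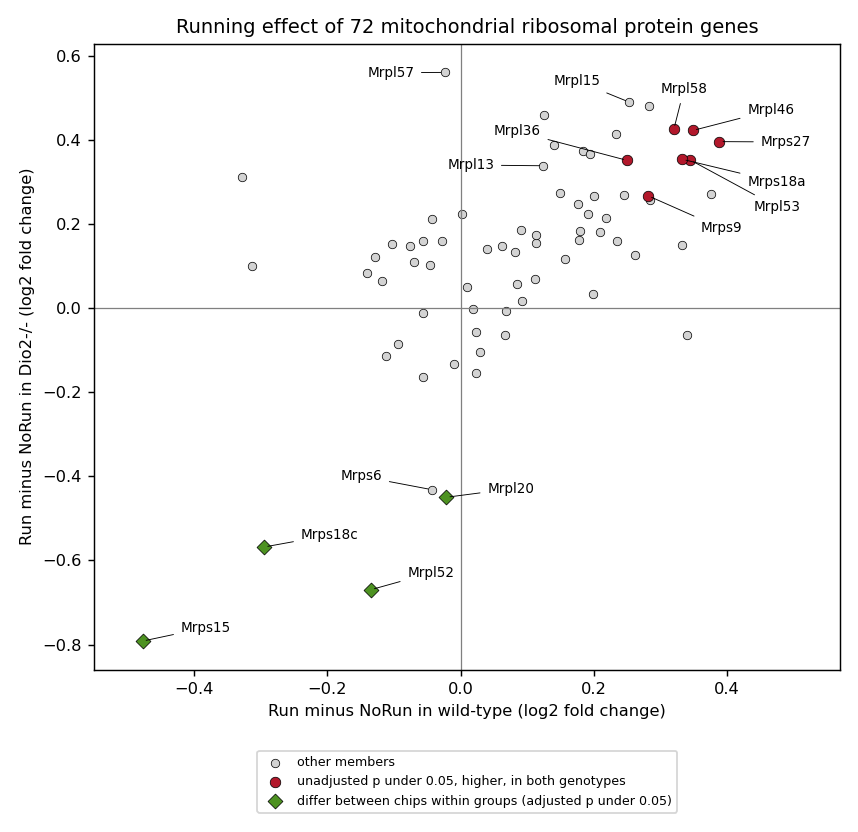
Running effect (Run minus NoRun, log2 fold change) in wild-type mice (horizontal axis) and in Dio2-/- mice (vertical axis) for the 72 genes. Points in red had an unadjusted p below 0.05 for a higher level in both genotypes (7 genes) and green diamonds are the 4 genes that differed between chips, while 42 points lie to the upper right of both zero lines.

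Mrpl46, a large-subunit protein of mitochondria only, was among the members with no overlap in either genotype. Its level was 11.59 to 12.08 in Dio2-/- Run (median 11.82), against 11.24, 11.45 and 11.57 in Dio2-/- NoRun, a log2 fold change of 0.42 (SE 0.12, adjusted p = 0.0974). In wild-type mice it was 11.63 to 12.02 in Run (median 11.73), against 11.51, 11.52 and 11.32 in NoRun (0.35, SE 0.12, adjusted p = 0.209). All Run pools were thus above all NoRun pools of their genotype. Mrps11, whose promoter window faces that of Mrpl46, had differences of 0.27 in Dio2-/- (unadjusted p = 0.0766) and 0.20 in wild-type mice (unadjusted p = 0.157).

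Mrpl36, the counterpart of a small zinc-binding protein of the bacterial large subunit, was at 12.18 to 12.57 in Dio2-/- Run (median 12.42), against 11.91, 12.16 and 12.07 in Dio2-/- NoRun (0.35, SE 0.11, adjusted p = 0.1). In wild-type mice it was at 12.34 to 12.58 in Run (median 12.41), against 12.26, 12.18 and 12.17 in NoRun (0.25, SE 0.10, adjusted p = 0.291). Run was higher without overlap in both genotypes, although in Dio2-/- mice the lowest Run and the highest NoRun pool nearly met. Mrps18a, one of the homologues of bacterial S18 and located in the large subunit, was at 11.29 to 11.78 in Dio2-/- Run (median 11.46), against 11.05, 11.14 and 11.26 in Dio2-/- NoRun (0.35, SE 0.13, adjusted p = 0.164). In wild-type mice it was at 11.24 to 11.64 in Run (median 11.33), against 11.09, 11.13 and 10.90 in NoRun (0.33, SE 0.13, adjusted p = 0.263). Here too no Run pool reached down to a NoRun pool of its genotype.

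Mrps27, a pentatricopeptide repeat protein of the small subunit, was at 8.41 to 9.21 in Dio2-/- Run (median 8.58), against 8.12, 8.16 and 8.47 in Dio2-/- NoRun (0.40, SE 0.15, adjusted p = 0.174). In wild-type mice it was at 8.18 to 8.65 in Run (median 8.32), against 8.04, 7.93 and 7.91 in NoRun (0.39, SE 0.15, adjusted p = 0.256). The wild-type groups were separate and the Dio2-/- groups overlapped, with Dio2-/- Run 32 far above the other pools. Mrps9, the counterpart of bacterial S9, was at 11.45 to 11.69 in Dio2-/- Run (median 11.56), against 11.05, 11.34 and 11.47 in Dio2-/- NoRun (0.27, adjusted p = 0.22, or 0.15 without Dio2-/- NoRun 16). In wild-type mice it was at 11.15 to 11.53 in Run (median 11.42), against 11.09, 11.15 and 11.03 in NoRun (0.28, adjusted p = 0.277). Its Dio2-/- groups overlapped and its wild-type groups just did not.

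Mrpl58, a peptidyl-tRNA hydrolase that frees stalled ribosomes and is also built into the large subunit, was at 9.74 to 10.20 in Dio2-/- Run (median 9.97), against 9.47, 9.50 and 9.67 in Dio2-/- NoRun (0.43, SE 0.15, adjusted p = 0.145). In wild-type mice it was at 9.66 to 10.31 in Run (median 9.91), against 9.72, 9.68 and 9.45 in NoRun (0.32, adjusted p = 0.347), with overlap. Mrpl53, of mitochondria only, differed by 0.35 in Dio2-/- mice (adjusted p = 0.202) and by 0.34 in wild-type mice (adjusted p = 0.289), with overlap in both. Of the members with an unadjusted p below 0.05 in wild-type but not in Dio2-/- mice, Mrpl1, which forms a mobile stalk of the large subunit, was at 10.17 to 10.80 in wild-type Run (median 10.34), against 9.997, 10.18 and 9.81 in wild-type NoRun (0.38, SE 0.14, adjusted p = 0.247). Mrps26, of the small subunit and mitochondria only, was at 10.32 to 10.68 in wild-type Run (median 10.59), against 10.16, 10.15 and 10.32 in wild-type NoRun (0.33, adjusted p = 0.258), and its difference in Dio2-/- mice was 0.15. That a gene had a small p in one genotype and not in the other does not show a difference between them, and the interaction of genotype and running gave an unadjusted p below 0.05 for 1 member.

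**Figure D3:**
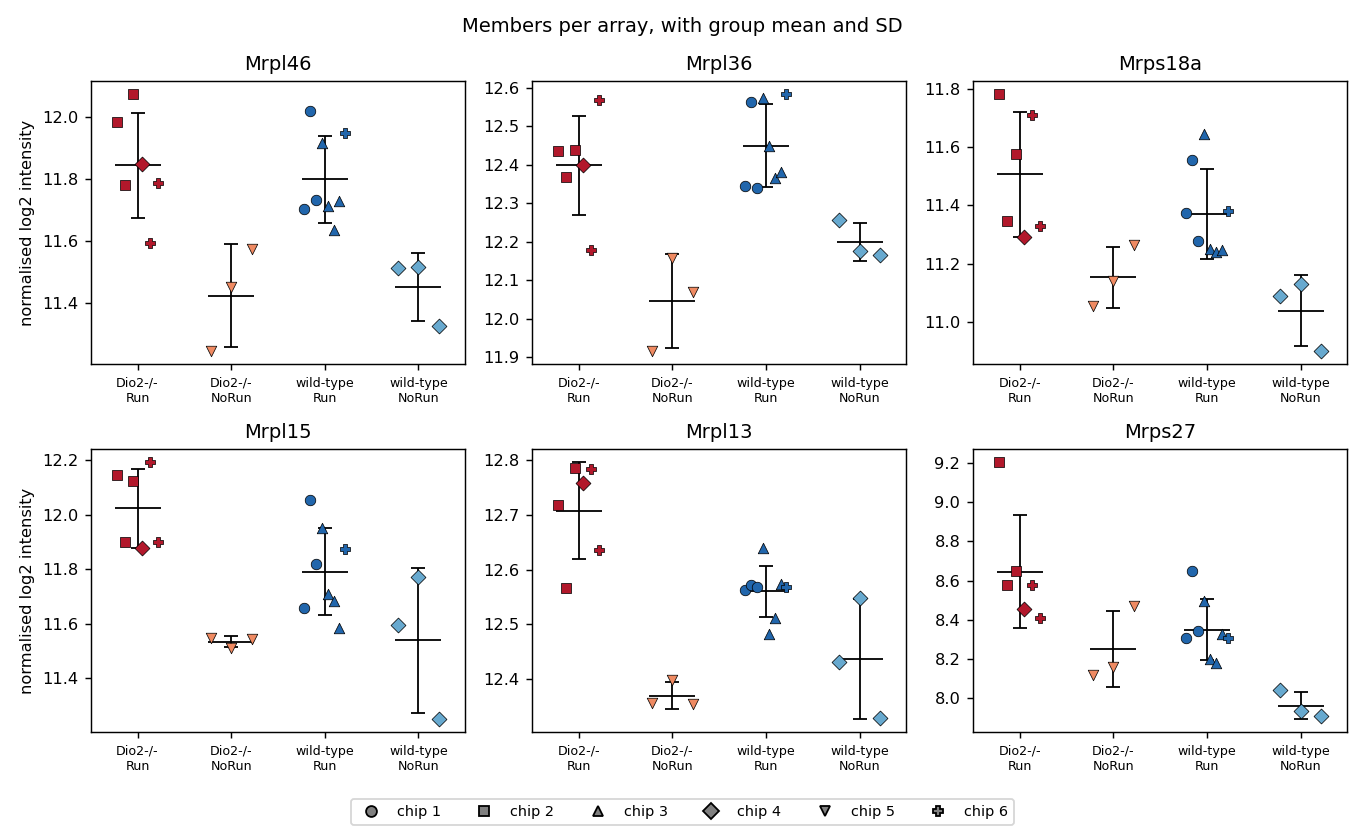
Normalised log2 intensity (vertical axis, each panel with its own scale) of Mrpl46, Mrpl36, Mrps18a, Mrpl15, Mrpl13 and Mrps27 on each of the 20 arrays by group, with group mean and SD as bars and the chip as marker shape. In the panel of Mrpl46 all Run pools lie above all NoRun pools of their genotype, and in the panel of Mrps27 Dio2-/- Run 32 stands at 9.21.

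Marker lists of other cells also differed between Run and NoRun pools, which lie on separate chips within each genotype. At an unadjusted p below 0.05, 8.4% of all tested genes were higher and 8.02% lower in Run of Dio2-/- mice. In wild-type mice these shares were 6.52% and 6.47%. Between Run and NoRun of Dio2-/- mice, the neutrophil list was higher in all 14 tested genes (median 0.49, 1 with an unadjusted p below 0.05), and the adipocyte list was lower in 5 of 7 (median -0.87, with an unadjusted p below 0.05 for those 5 and for 1 of the higher genes). The mean log2 level of the neutrophil list was 13.998 to 15.02 in Dio2-/- Run. It was 12.88, 14.99 and 14.93 in Dio2-/- NoRun 16, 17 and 19, and was lowest on Dio2-/- NoRun 16 and Dio2-/- Run 24. The mean level of the adipocyte list was 9.34 to 9.98 in Dio2-/- Run and 10.06 to 10.53 in Dio2-/- NoRun, without overlap. Without the pools Dio2-/- NoRun 16 and Dio2-/- Run 24, the members' median in Dio2-/- mice was again 0.15, and 10 were higher and 2 lower at an unadjusted p below 0.05 (13.9% higher, against 7.49% of all genes). In wild-type mice the muscle list was lower in Run in all 19 genes (median -0.29, 2 with an unadjusted p below 0.05), with Pygm at -1e-05. The chondrocyte list was lower in 10 of 12 (median -0.39, 3 of them with an unadjusted p below 0.05). The list of dividing cells was higher in 7 of 10 (median 0.21, 3 of them with an unadjusted p below 0.05). The mean level of the dividing-cell list was 11.22 to 11.45 in wild-type Run and 11.14 to 11.24 in wild-type NoRun. The part of these cell types in the members' differences was not tested.

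With running as a term, the median log2 fold change of Dio2-/- over wild-type was 0.02, against 0.009 over all tested genes, and 42 of 72 genes were higher in Dio2-/-, whereas with each array scaled to its median 10 were higher, with a member median of -0.13 against -0.12 over all genes. An unadjusted p below 0.05 was found for 5 members (6.94%) with higher and 1 (1.39%) with lower level, against 8.76% higher and 6.95% lower among all genes, and 0 were called after adjustment, where 0.00432% of all probes were. With chip as a fixed block the counts were 1 higher and 6 lower, against 3.5% higher and 4.08% lower among all genes. That fit compares the genotypes on chip 6 only, 2 Dio2-/- Run pools against 1 wild-type Run pool. The 6 genes of the fit without the chip block were Mrps27, Mrpl2, Mrps9, Mrpl38 and Mrps18b, higher in Dio2-/-, and Mrpl40, lower. At the median SE of 0.09 of these fits, small genotype differences of single genes were not detectable.

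Mrpl2, the counterpart of a bacterial protein next to the catalytic centre, was at 11.36 to 12.15 in Dio2-/- (median 11.68), against 10.96 to 11.74 in wild-type cartilage (median 11.38). The log2 fold change was 0.33 (SE 0.11, 95% interval 0.11 to 0.56, adjusted p = 0.237), and it was 0.33 in Run and 0.34 in NoRun. Mrps27 differed by 0.29 (SE 0.09, 95% interval 0.10 to 0.49, adjusted p = 0.236) and Mrps9 by 0.19 (SE 0.07, adjusted p = 0.272), but with chip as a fixed block Mrps9 differed by -0.006. The ranges of the genotypes overlapped in Mrpl2, Mrps27 and Mrps9. Mrpl40, a large-subunit protein of mitochondria only, was at 11.41 to 11.90 in Dio2-/- (median 11.70), against 11.75 to 12.09 in wild-type (median 11.86), a log2 fold change of -0.23 (SE 0.08, 95% interval -0.39 to -0.07, adjusted p = 0.242). Next in order were Mrps18b at 0.16 (adjusted p = 0.34), Mrpl38 at 0.20 (adjusted p = 0.344), Mrps35 at -0.18, Mrpl33 at -0.15, Mrpl55 at 0.24 and Mrps34 at 0.19.

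**Figure D4:**
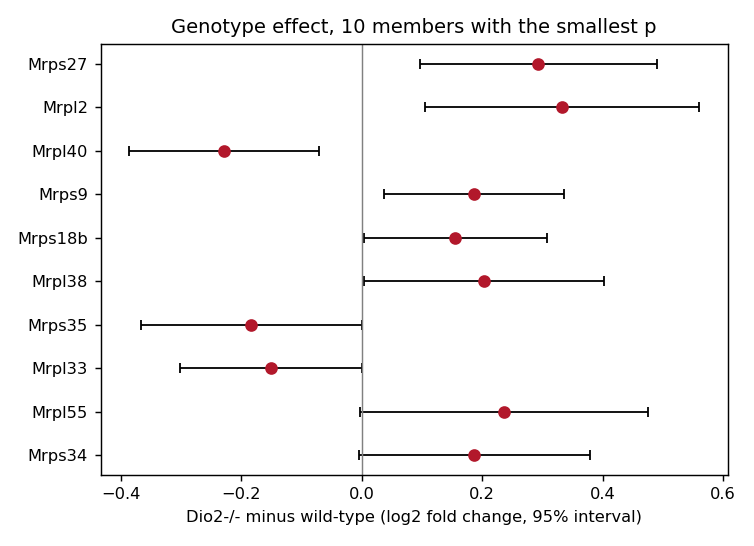
Genotype effect (Dio2-/- minus wild-type, log2 fold change, horizontal axis) with 95% intervals for the 10 members with the smallest unadjusted p. The intervals of Mrps27 and Mrpl2 lie above 0 and that of Mrpl40 below 0, before adjustment over all probes.

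In NoRun cartilage alone, 2 members were higher and 5 lower in Dio2-/- at an unadjusted p below 0.05, against 5.07% and 5.74% of all genes, with a median of -0.002. None was called, against 0.0432% of all probes. These counts rest on single pools: without wild-type NoRun 12 there were 0 higher and 1 lower (2.79% and 3.33% of all genes), and without Dio2-/- NoRun 19 there were 0 higher and 5 lower (6.6% and 8.06% of all genes). Mrpl40 was at 11.53, 11.53 and 11.49 in Dio2-/- NoRun, against 12.09, 11.93 and 11.75 in wild-type NoRun, without overlap (-0.41, SE 0.13, adjusted p = 0.332). Mrpl55, of mitochondria only, was at 10.40, 10.14 and 10.45 in Dio2-/- NoRun, against 9.66, 9.99 and 9.78 in wild-type NoRun (0.52, SE 0.20, adjusted p = 0.405), and here every Dio2-/- pool was the higher. Mrpl57 was at 5.88, 7.36 and 6.91 in Dio2-/- NoRun, against 7.79, 7.41 and 7.15 in wild-type NoRun (-0.73, adjusted p = 0.406), with overlap and a wide spread among the Dio2-/- pools. Mrps6 differed by 0.46 (adjusted p = 0.448), and Mrps14, the gene near background, by -0.56. Because the NoRun groups lie on separate chips, with Dio2-/- on chip 5 and wild-type on chip 4, genotype and chip cannot be told apart in this comparison.

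In Run cartilage alone, 5 members were higher and 0 lower in Dio2-/- at an unadjusted p below 0.05, against 4.97% and 3.11% of all genes, with a median of 0.05. These were Mrpl13, Mrpl15, Mrpl2, Mrps18b and Mrps27, with 0.15 for Mrpl13 and 0.23 for Mrpl15 (unadjusted p = 0.0308, adjusted p = 0.578). After adjustment 0 members and 0% of all probes were called. The interaction of genotype and running had a median of 0.04. It gave 1 member with an unadjusted p below 0.05, Mrps14 (0.64, adjusted p = 0.956), against 2.5% of all genes above and 2.24% below 0, and again 0% of all probes were called. Mrps14 was detected on 6 arrays, so that its values are close to background. Over the genotype comparison the muscle list was higher in Dio2-/- in all 19 genes (median 0.43, 8 with an unadjusted p below 0.05) and the neutrophil list lower in all 14 (median -0.42, 3 with an unadjusted p below 0.05). Among all tested genes, 8.76% were higher and 6.95% lower at that p. The part of these cells in the members' values was not tested.

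Single genes of known role did not pass the test. Mrpl12, which also binds the mitochondrial RNA polymerase, differed by 0.11 between the genotypes (95% interval -0.09 to 0.30, unadjusted p = 0.269). Mrps12, which lies at the decoding centre, differed by -0.01 (adjusted p = 0.957), and Mrps30 by -0.02 (adjusted p = 0.917).

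For 25 members several probes were tested. Over all 109 probes 1 passed adjustment for running in Dio2-/- mice, where 0.134% of all probes did. This was a dimmer probe of Mrpl15, a gene with several tested probes. It was at 7.94 to 8.32 in Dio2-/- Run (median 8.12), against 6.70, 7.69 and 7.11 in Dio2-/- NoRun, a log2 fold change of 0.98 (SE 0.19, adjusted p = 0.0474 in limma), without overlap. In wild-type mice this probe of Mrpl15 was at 7.62 to 8.28 in Run (median 7.96), against 7.15, 7.58 and 7.07 in NoRun (0.70, adjusted p = 0.102). The remaining tested probes of Mrpl15 had medians of 11.82, 9.06, 6.69 and 6.12 in Dio2-/- Run. In Dio2-/- NoRun these medians were 11.44, 8.49, 6.39 and 5.99. Counting all 109 probes, 27 had a higher and 5 a lower level in Run of Dio2-/- mice at an unadjusted p below 0.05, against 9.72% higher and 9.5% lower among all 23148 tested probes. In wild-type mice 19 had a higher and 0 a lower level in Run, against 6.97% and 6.21% of all probes.

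Probes of one gene did not always point the same way. All probes had the same sign in 17 of 25 genes for running in Dio2-/-, in 11 for running in wild-type and in 16 for genotype. Signs were opposite, with an unadjusted p below 0.05 on at least 1 probe, in Mrpl1, Mrpl13, Mrpl49 and Mrps5 for running in Dio2-/-, in Mrpl15, Mrpl49, Mrps18b and Mrps31 for running in wild-type, and in Mrpl15, Mrpl38 and Mrpl49 for genotype. Mrps18b, another homologue of bacterial S18, differed by 0.06 in Dio2-/- and -0.12 in wild-type mice on its brightest probe, whereas its dimmer probes differed by 0.47 and 0.59 in Dio2-/- mice. In wild-type mice these dimmer probes had medians of 8.82 and 9.09 in Run, against 8.26 and 8.52 in NoRun. For Mrpl13 the second probe differed by -0.25 in Dio2-/- mice, opposite to its brightest probe. That second probe was dim, at 5.12 to 6.23, and was detected on 15 of the 20 arrays. The dimmer probes of Mrpl1 and Mrps5 were detected on 8 and 9 arrays, while the brightest probes of these genes were detected on all 20. Which transcripts each probe of a gene detects was not examined here.

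A small set of members differed between chips within the groups, and it was chosen after its values were seen. A limma F test of chip beyond group called 4 of 72 members (5.56%), against 2.96% of all tested genes, 0 of 50 cytosolic ribosomal proteins and 4 of 71 respiratory chain subunits (5.63%). The 4 were Mrps15 (adjusted p = 0.00439), Mrpl20 (adjusted p = 0.0024), Mrpl52 (adjusted p = 0.0108) and Mrps18c (adjusted p = 0.0167). Their SD within groups was 0.60 for Mrps15, 0.45 for Mrpl20, 0.41 for Mrpl52 and 0.39 for Mrps18c, against a median of 0.17 over the members.

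Mrps15, the counterpart of bacterial S15, was at 7.31 to 8.29 on all arrays of chips 3, 4 and 5 and at 6.10 to 6.93 on those of chips 1, 2 and 6. Mrps18c, the third homologue of bacterial S18, was at 9.83 to 10.63 on chips 3, 4 and 5 and at 9.31 to 9.66 on chips 1, 2 and 6. Neither gene overlapped between these sets of chips, although each set held pools of both genotypes. The sets were formed after the values were seen, so the lack of overlap is a description only. Mrpl20 averaged 9.50, 9.19 and 9.25 on chips 3, 4 and 5 and 8.62, 8.78 and 8.39 on chips 1, 2 and 6. Mrpl52 averaged 9.76, 9.40 and 9.76 on chips 3, 4 and 5 and 8.76, 8.91 and 9.06 on chips 1, 2 and 6. The wild-type Run group spans both sets of chips and was split in the same way. Dio2-/- Run 35, the only Dio2-/- Run pool on chip 4, had 7.56 for Mrps15, 9.61 for Mrpl20 and 10.27 for Mrps18c, each the highest of its group.

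The NoRun groups lie on chips 4 and 5 only, and these 4 genes also had the lowest running effects of all members in Dio2-/- mice. The log2 fold change of Run over NoRun was -0.79 for Mrps15, -0.67 for Mrpl52, -0.57 for Mrps18c and -0.45 for Mrpl20. With chip as a fixed block, the running effect in wild-type mice had a member median of 0.09, with 4 members higher and 1 lower at an unadjusted p below 0.05 (5.56% higher, against 7.41% of all genes), and the genotype effect had a median of 0.04, against -0.0007 over all genes. The running effect in Dio2-/- mice could not be estimated with that block. With chip as a random block, 12 members were higher in Run of Dio2-/- mice and 7 in Run of wild-type mice (16.7% and 9.72%, against 5.12% and 5.52% of all genes). This block does not separate running from chip in Dio2-/- mice either, because their NoRun pools were alone on chip 5. Within chip 4 the members' median difference of Dio2-/- Run (1 pool) over wild-type NoRun (3 pools) was 0.09. The median deviation per array was -0.01 in Dio2-/- Run 35, against 0.0005, 0.004 and -0.16 in wild-type NoRun 12, 14 and 15. By this measure the Run pool was above wild-type NoRun 15 only. Within chip 6 the members' median difference of Dio2-/- Run (2 pools) over wild-type Run (1 pool) was 0.04. No other chip held pools of different groups, so the estimates with the fixed block rest on these comparisons and are not separate from them. For each gene the fixed-block genotype effect is the chip 6 difference. The fixed-block running effect in wild-type mice is the chip 4 difference less that of chip 6.

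**Figure D5:**
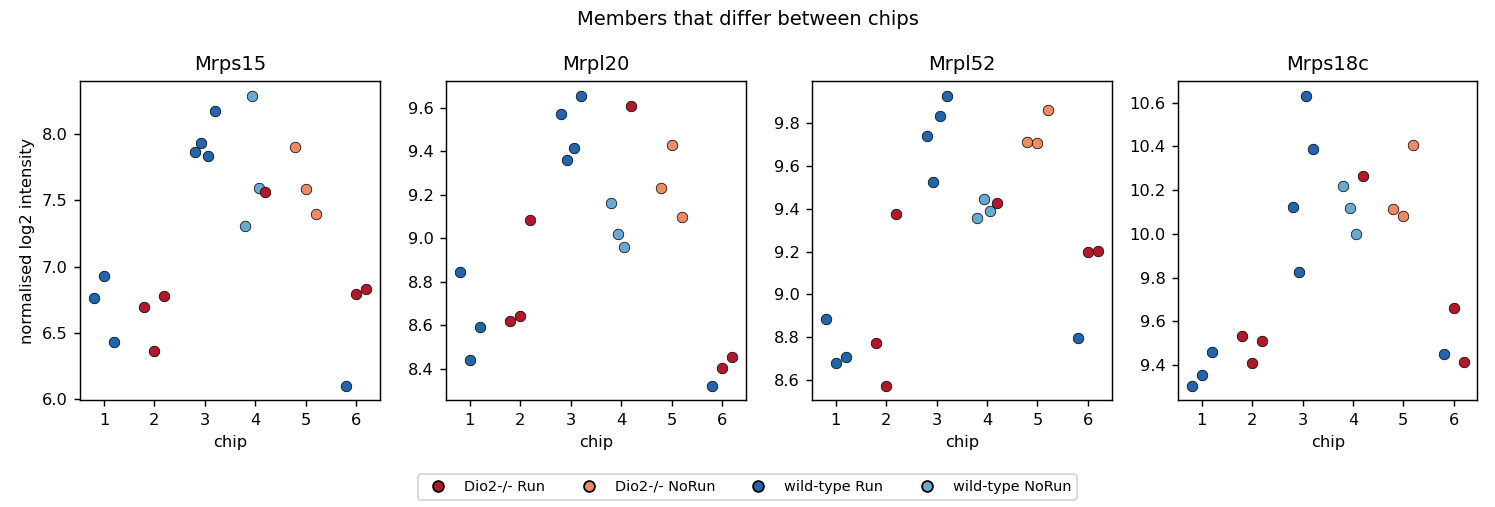
Normalised log2 intensity (vertical axis, each panel with its own scale) of Mrps15, Mrpl20, Mrpl52 and Mrps18c by chip (horizontal axis), each point an array coloured by group. Arrays of chips 3, 4 and 5 lie high and those of chips 1, 2 and 6 low within the same groups, as in Mrps15 with 7.31 to 8.29 and 6.10 to 6.93.

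Other gene lists, among them genes that work with the mitochondrial ribosome, were described for comparison. At an unadjusted p below 0.05, 8.4% of all tested genes were higher and 8.02% lower for running in Dio2-/- mice. These shares were 6.52% and 6.47% for running in wild-type mice and 8.76% and 6.95% for genotype. For 50 cytosolic ribosomal proteins the median running effect was 0.03 in Dio2-/- mice, with 4 higher (8%) and 0 lower at an unadjusted p below 0.05. It was 0.01 in wild-type mice, with 8 higher (16%) and 1 lower (2%). For 71 subunits of the respiratory chain the median running effect was 0.11 in Dio2-/- mice, with 8 higher (11.3%) and 2 lower (2.82%). It was -0.005 in wild-type mice, with 4 higher and 4 lower (5.63% each). These subunits were higher in Dio2-/- than in wild-type for 59 of 71 genes (median 0.09, 12 higher and 0 lower at an unadjusted p below 0.05), while the mitochondrial ribosomal proteins had 0.02. The muscle list was also higher in Dio2-/-, in all 19 genes (median 0.43). Neither the difference between these lists nor the part of muscle in it was tested.

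Factors that build the mitochondrial ribosome and modify its RNA had a running median of 0.22 in Dio2-/- mice, with 14 of 18 genes higher. Of these, 4 (Eral1, Gtpbp10, Mtg1 and Tfb1m) had an unadjusted p below 0.05 (22.2%, against 8.4% of all genes). In wild-type mice the median was 0.004, with 1 gene higher at that p (5.56%, against 6.52% of all genes). Translation factors had a running median of 0.21 in Dio2-/- mice, with 12 of 16 higher. Of these, 4 (Mrrf, Mtrf1, Oxa1l and Tsfm) had an unadjusted p below 0.05 (25%, against 8.4% of all genes). In wild-type mice the median was -0.005, with 0 higher and 2 lower at that p (12.5% lower, against 6.47% of all genes). Oxa1l, which inserts newly made proteins into the inner membrane, differed by 0.61 in Dio2-/- mice (SE 0.14, adjusted p = 0.0644), and Mtg1, a GTPase of ribosome assembly, by 0.50 (SE 0.13, adjusted p = 0.0777). Oxa1l and Mtg1 were picked after their values were seen. Mrrf, the factor that splits ribosomes after termination, differed by 0.42 in Dio2-/- (adjusted p = 0.143) and by 0.18 in wild-type mice. Guf1, an elongation factor homologue, ran the other way, with -0.42 in Dio2-/- and -0.55 in wild-type mice (adjusted p = 0.269).

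Of 13 mitochondrial aminoacyl-tRNA synthetases, which charge tRNAs for this ribosome, 10 were higher in Run in each genotype. The median was 0.25 in Dio2-/- mice, with 5 higher and 1 lower at an unadjusted p below 0.05 (38.5% and 7.69%, against 8.4% and 8.02% of all genes). It was 0.16 in wild-type mice, with 1 higher and 0 lower (7.69% higher, against 6.52% of all genes). Sars2 and Vars2 had the smallest p of these for genotype, both at 0.24 (adjusted p = 0.275 for Sars2 and 0.285 for Vars2). Regulators of mitochondrial transcription and biogenesis had running medians of 0.06 in Dio2-/- and 0.02 in wild-type mice. At an unadjusted p below 0.05, 1 was higher in Dio2-/- (7.69%) and 2 in wild-type mice (15.4%). Gabpb1, a subunit of GABP, was lower by 0.26 on the log2 scale in Dio2-/- than in wild-type cartilage (adjusted p = 0.276), and Mterf1a, which ends mitochondrial transcripts, had a genotype difference of -0.17. The genes Chchd1, Dap3, Gadd45gip1 and Ptcd3 encode mitochondrial ribosomal proteins under other symbols, and 0 of 4 had an unadjusted p below 0.05 for running in either genotype. Their running effects in Dio2-/- mice were 0.21 for Chchd1, -0.01 for Dap3, 0.08 for Gadd45gip1 and 0.05 for Ptcd3.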

How the data were processed

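Knee cartilage RNA had been hybridised to Illumina MouseWG-6 v2 chips. The authors deposited intensity values per probe on a linear scale, not normalised, with a detection p-value against the negative controls of each array. They also deposited normalised log2 values, used as an alternative. The submitters' notes name GenomeStudio, with version and normalisation not given in the sources used here. Intensities were corrected and quantile-normalised with neqc (offset 16) of limma 3.58.1 in R 4.3.3. Detection (p-value below 0.05) was required on 3 or more arrays. Limma's linear model with empirical Bayes was fitted on all 20 arrays, once on genotype and running and once on the 4 groups, and p-values were adjusted by Benjamini-Hochberg over 23148 probes, with calls at 0.05. Unadjusted p-values describe counts only. Tests are two-sided, and p-values set each difference against the spread between pools left by the fit, which does not remove differences between chips. The number of arrays limits the precision. Members and lists were chosen with earlier results of these data known. Named were the 10 members with the smallest p for genotype, 8 for running in wild-type, 5 for each other comparison, genes with disagreeing probes or known roles, and the others as stated. Alternatives were other normalisations and filters, an intensity trend, array weights, chip or position as a term, and left-out pools. Probe genes came from the platform annotation, and all 76 symbols were found in RefSeq (GRCm38.p6). The script was tested on simulated data. Replicate arrays discarded in the study were not analysed here.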

Additional observations from a re-analysis of the deposited data

Results flagged for a closer look

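In 56 comparisons of single samples with their own group, 2 values stood apart by Dixon's criterion, which chance alone meets in about 1 of 20 groups. Mrpl1 was at 10.10 in Dio2-/- Run replicate 33, and the next pool of that group was at 10.46, a gap of 0.839 of the whole range. Mrps27 was at 9.21 in Dio2-/- Run replicate 32, and the next pool was at 8.65, a gap of 0.698 of the range. Both pools were on chip 2.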

How the results depend on the processing

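Most results kept their direction and their side of the threshold. Of the values for named genes 1418 were the same, 17 passed the threshold in addition and 14 changed sign. Median scaling moved all tested genes by -0.12 (genotype), 0.14 (running in Dio2-/-), -0.21 (genotype in NoRun) and -0.08 (genotype in Run), and the members' medians became -0.13, 0.37, -0.30 and -0.049. It turned the genotype differences of Mrpl12 to -0.048 and of Mrps18a to -0.026. Members higher in Run at an unadjusted p below 0.05 then numbered 28 in Dio2-/- and 0 in wild-type mice (7.92% and 2.73% of all genes). With the authors' log2 values 1 member was called for running in Dio2-/-, Mrpl13 (adjusted p = 0.0303). Array weights, whose estimate did not converge, called 3 members for running in wild-type, 18 for running in Dio2-/-, 9 for genotype in NoRun and 1 for the interaction, with 2071, 5881, 3374 and 827 of all probes. Leaving out 1 pool at a time gave 0 to 7 calls for running in Dio2-/- (7 without Dio2-/- Run 24, among them Mrpl15, Mrpl13, Mrpl46, Mrpl36 and Mrpl44) and medians of 0.13 to 0.18, of 0.03 to 0.12 for running in wild-type and of 0.003 to 0.04 for genotype. For the authors' values and the left-out pools, the calls over all probes are not given here, so these calls do not set members apart.

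At an unadjusted p below 0.05, members higher in Run of wild-type mice numbered 17 without background correction (7.4% of all genes), 19 with the authors' values (7.57%), 19 without a filter on dim probes (5.88%), 15 with an intensity trend (6.76%) and 4 with chip as a fixed block (7.41%). Lower members in Dio2-/- mice numbered 1 without Dio2-/- NoRun 16 (4.33%) or Dio2-/- Run 33 (7.64%) and 0 without Dio2-/- NoRun 19 (9.19%). Higher members for genotype numbered 8 without wild-type Run 20 (9.46%) or 30 (9.29%), 9 without Dio2-/- Run 35 (10.8%), 12 with position as a covariate (10.9%) and, at 6.26% to 8.81% of all genes, 3 without wild-type Run 22, 27, 29 or 31, wild-type NoRun 15, or Dio2-/- Run 24 or 34. Those for genotype in Run, at 2.79% to 4.14% of all genes, numbered 3 without wild-type Run 21, 27 or 29 or Dio2-/- Run 34, 2 without wild-type Run 22 and 1 without Dio2-/- Run 32 or 24. Members lower for genotype in NoRun numbered 1 without wild-type NoRun 12 (3.33%), 2 without Dio2-/- NoRun 16 (4.26%) or 17 (9.93%), and 3 without wild-type Run 23, 27, 29 or 30, wild-type NoRun 14, or Dio2-/- Run 25, 33, 34 or 35 (3.89% to 5.77%), while higher ones numbered 0 without wild-type NoRun 12 or Dio2-/- NoRun 19 and 1 without wild-type NoRun 14. The genotype difference of Mrps9, 0.19 otherwise, was -0.006 with the chip block, which for genotype is the difference within chip 6. Differences near 0 changed sign: with the chip block Mrps12 (0.17), with position Mrpl49 (0.010) and Mrps12 (0.083), without both pools low in neutrophil genes Mrps30 (0.0061), and on leaving out pools Mrps12 (-0.038 to 0.019), Mrpl49 (-0.055 to 0.0046) and Mrps30 (-0.046 to 0.0026). The causes were not tested. With chip as a fixed block the running effect in Dio2-/-, genotype in NoRun and the interaction could not be estimated. No paired analysis was possible because the groups share no replicate numbers. Signal over background limits Mrps14.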
